A study of Mus musculus with 18 samples.

Results

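The tumor suppressor p53, its relative p73 and 8 genes known as targets of p53 were followed in RNA of mouse mammary tumors that carry a Trp53 deletion and in normal mammary gland. The 10 genes were chosen by name: Trp53, Trp73, Mdm2, Ccng1, Cdkn1a, Phlda3, Eda2r, Bbc3, Zmat3 and Sesn2. Each had a single row among the 55450 genes of the deposited count table, and all 10 passed the filter on low counts that left 19186 genes. A further 62 genes of the p53 pathway, all of which passed the filter, were read beside them.

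Every sample came from a different female C57Bl/6 mouse. B1/P/Rbf tumors (n = 5) arose in mice with floxed Brca1 and floxed Trp53 on both chromosomes (Brca1 fl/fl, Trp53 fl/fl) and the TgK18GT121 transgene. B1/P tumors (n = 5) arose in Brca1 fl/fl, Trp53 fl/fl mice without the transgene, and P/Rbf tumors (n = 5) in Trp53 fl/fl mice with the transgene. The transgene yields T121, a fragment of the SV40 large T antigen that binds and inactivates pRb, p107 and p130, from the keratin 18 promoter in epithelial cells. In all tumor mice recombination was started by an adenovirus carrying Cre injected into the mammary ducts of adult females. Floxed Trp53 is therefore shared by the 3 tumor groups. Which cells of a tumor had recombined it was not measured in these data. Normal glands (n = 3) came from wild-type mice, and the labels give no age at collection.

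p53 is a transcription factor that is kept low by the ubiquitin ligase Mdm2 and is stabilized by DNA damage and other stress. It then binds paired sites near its targets, among them genes that halt the cell cycle, promote cell death, limit growth and turn p53 itself off. p73 and p63 share its DNA-binding domain and can bind the same sites. p63 is best known in the mammary gland as a factor of basal and myoepithelial cells. The Trp73 gene has an upstream and an internal start, which yield forms with and without the activation domain, and counts over the whole gene do not tell these apart.

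Values are CPM (counts scaled to library size) after TMM scaling, a method of edgeR that sets libraries of different composition on a common scale. Total expected counts per sample lay between 27661173 and 37794889. A gene was called where edgeR's quasi-likelihood test, adjusted by Benjamini-Hochberg over all 19186 genes, gave 0.05 or less, and log2 fold changes are given with the standard error of that fit. The deleted genes were read first. Trp53 was lower in every tumor than in every gland (values below). Brca1 ranged from 8.13 to 45 CPM over the tumors with floxed Brca1, from 44.9 to 116 CPM over those without it (P/Rbf), and from 4.61 to 5.99 CPM over glands. B1/P/Rbf tumor 208863 is recorded as having lost Brca1 only in part. Without it, the members called numbered 6 for B1/P/Rbf tumors against gland, 4 against B1/P and 0 against P/Rbf, the same counts as with it. Of all genes tested, the fit that included this tumor called 37%, 16.7% and 0.281% in these comparisons. Deposited counts cover whole genes, so reads from deleted exons cannot be told from the rest.

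The glands differed from the tumors in the cells they held. Summed over 6 skeletal muscle markers, glands had 22832 to 45523 CPM and no tumor more than 593 CPM, a value reached by B1/P tumor 248662. Summed over 8 adipocyte markers, glands had 20019.6 to 25593 CPM against at most 236 CPM in a tumor, and over 9 lymphocyte markers 606 to 874 CPM against at most 142 CPM. No gene of these lists was at 0 in every sample of a group, and all 6, 8 and 9 of them were called lower in each tumor group than in glands. The 12 proliferation genes were called higher in each tumor group, from 248 to 269 CPM in glands to at least 1201 CPM in the tumors. Markers of luminal epithelium (822 CPM or more in every sample, summed over 8 genes) and of myoepithelium (64.4 CPM or more, summed over 7 genes) were present in each sample. Each comparison with normal gland below carries these differences in cell makeup, and their part in it was not tested. Tumor groups also differed. The mean log2 level of 10 fibroblast markers, as a difference from B1/P tumors, was −1.26 in B1/P/Rbf (exact two-sided permutation p = 0.0556, 2 genes called lower) and −1.43 in P/Rbf tumors (exact p = 0.00794, 5 called lower). That of 8 macrophage markers was −0.73 (exact p = 0.254, 0 called) and −1.32 (exact p = 0.0159, 2 called lower), and that of the luminal markers 1.09 (exact p = 0.127, 3 called higher) and 1.49 (exact p = 0.00794, 5 called higher). Their part in the differences between tumors below was not tested either. In RNA of whole tissue, fewer cells of a type and less RNA per cell cannot be told apart.

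A further division of the samples was inferred and is in no label. Fold changes in the study's supplement imply a term for 2 sets of samples, while its methods describe all 18 as pooled for sequencing. What the sets stand for is not known, and they are called library sets below only for short. The first set holds every B1/P/Rbf tumor together with 225068, 225070 and 246361 of the B1/P group. The second holds 255232 and 248662 of that group together with every P/Rbf tumor and gland. P/Rbf tumors and glands thus lie within 1 set, glands share none with B1/P/Rbf tumors, and among the genotypes B1/P alone spans both.

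Trp53, on chromosome 11 from 69580359 to 69591873 of GRCm38, was lower in all 3 tumor groups, which carry its deletion, than in gland. Normal glands had 58.2, 71.8 and 54.4 CPM. B1/P/Rbf tumors had 18.7, 15.3, 9.98, 9.82 and 19.7 CPM. B1/P tumors had 14.1, 24.3, 20.2, 8.55 and 6.75 CPM, and P/Rbf tumors 8.86, 11.4, 9.39, 13.8 and 10.5 CPM. RNA of Trp53 was still counted in every tumor, at 214 or more read pairs, and the highest tumor stayed below the lowest gland. The log2 fold change relative to gland was −2.06 ± 0.36 in B1/P/Rbf tumors (adjusted p = 0.000300 from edgeR), −2.05 ± 0.36 in B1/P tumors (adjusted p = 0.000370) and −2.51 ± 0.36 in P/Rbf tumors (adjusted p = 5.0e-05). The tumor groups overlapped, and none of their 3 differences was called (edgeR adjusted p = 0.991 for B1/P/Rbf against B1/P, 0.328 for P/Rbf against B1/P and 0.531 within T121 carriers).

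Within B1/P tumors Trp53 separated the library sets. The 3 tumors of the first set had 14.1 to 24.3 CPM and the 2 of the second 6.75 and 8.55 CPM, without overlap. Cdkn1a and Phlda3 also lay apart, while Trp73, Mdm2, Ccng1, Eda2r, Bbc3, Zmat3 and Sesn2 overlapped between the sets. How many of all genes lie apart in this way, with 3 tumors against 2, was not counted. With a term for the sets, P/Rbf relative to B1/P turned on the log2 scale from −0.45 to 0.50, and between the groups with T121 (B1/P/Rbf over P/Rbf) from 0.44 to −0.91. None of these values was called. Relative to gland, the set term moved the called log2 fold changes of Trp53 to −3.42 in B1/P/Rbf and −3.01 in B1/P tumors, both still called by edgeR, while P/Rbf tumors stayed at −2.51.

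**Figure D1:**
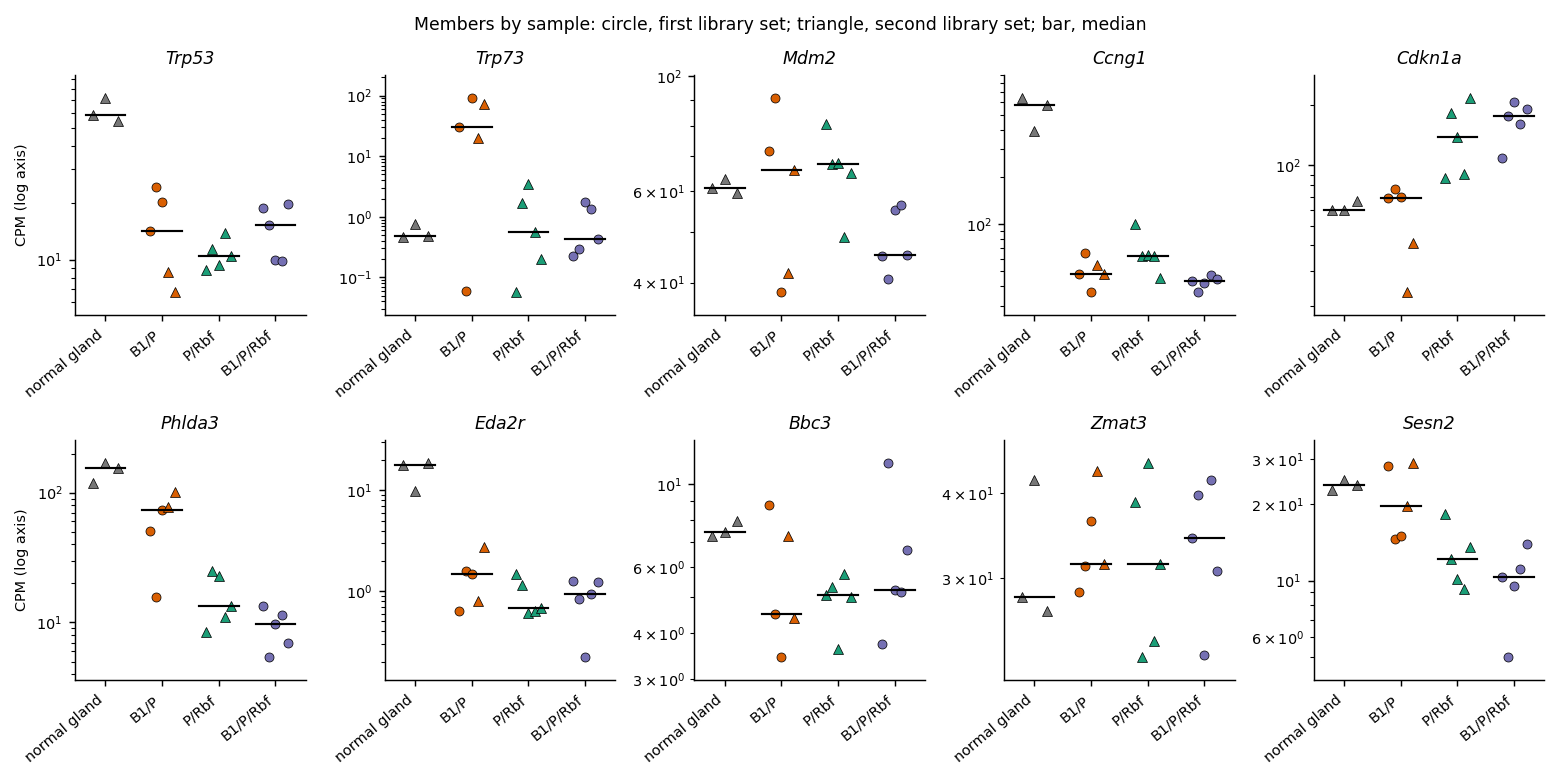
CPM on a log axis for the 10 genes in each of 18 mice, by group, with a bar at the group median; circles mark the first library set and triangles the second. Trp53, Ccng1, Phlda3 and Eda2r lie highest in normal glands, Cdkn1a highest in the groups with T121, and Trp73 is high in 4 of 5 B1/P tumors.

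Over the 10 tumors with T121, Trp53 was set against 9 lists of cell markers as mean log2 CPM. By Pearson's r, though not by rank and not with a prior count of 0.5 (0 of 9 lists called in both), tumors with more Trp53 RNA had more lymphocyte and macrophage RNA. For lymphocytes Pearson's r was 0.80 (permutation p = 0.00926, adjusted over the 9 lists 0.0485) and Spearman's rho 0.73 (permutation p = 0.0208, adjusted 0.0938). For macrophages r was 0.77 (permutation p = 0.0108, adjusted 0.0485) and rho 0.61 (permutation p = 0.0671, adjusted 0.201). Without the 2 tumors farthest from the median of the list, r was 0.81 for lymphocytes and 0.71 for macrophages. B1/P/Rbf and P/Rbf tumors belong to different library sets, with 5 tumors each, too few for an r of their own. With the means of both genotypes removed, r was 0.85 for lymphocytes (permutation p = 0.00362, adjusted 0.0326) and 0.71 for macrophages (permutation p = 0.0216, adjusted 0.0973). Endothelial markers gave r = 0.66 (permutation p = 0.0408, adjusted 0.122) and rho = 0.76 (permutation p = 0.0148, adjusted 0.0938), and the fibroblast, adipocyte, luminal, myoepithelial, muscle and proliferation lists had adjusted p values of 0.187 or more. With any 1 tumor left out, 0 or 1 of the 9 lists passed the threshold by Pearson's r. Among B1/P tumors, which did not enter the test, 225070 and 246361 had the most Trp53 RNA (24.3 and 20.2 CPM), the most macrophage RNA (1480.1 and 1059 CPM summed over 8 markers), the most lymphocyte RNA (128 and 142 CPM), the most fibroblast RNA (12961 and 6138 CPM) and the most endothelial RNA (393 and 409 CPM).

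**Figure D2:**
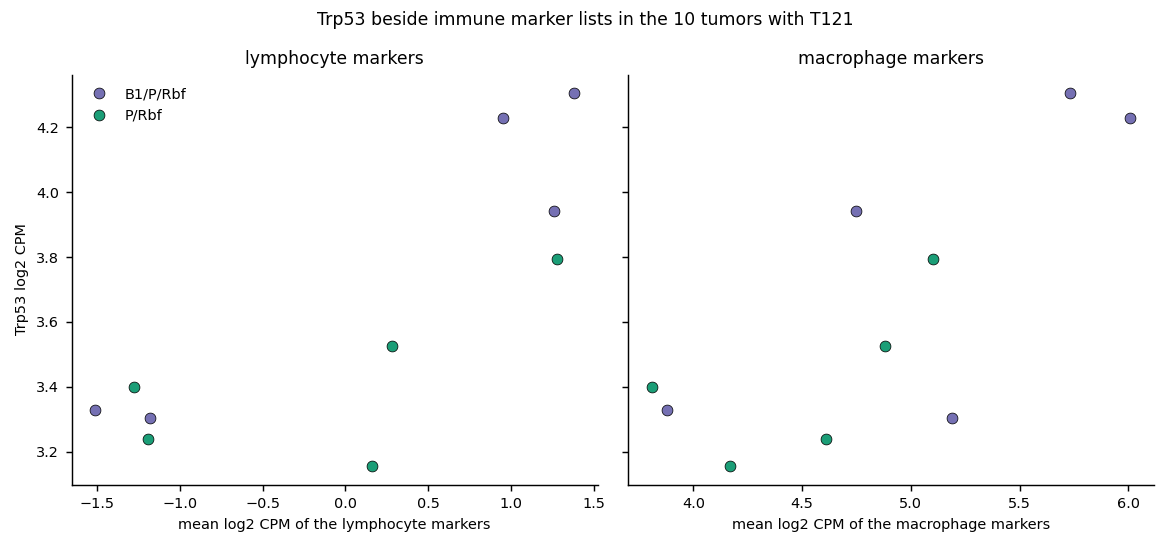
Log2 CPM of Trp53 against the mean log2 CPM of lymphocyte and macrophage markers in the 10 tumors with T121, 1 point per tumor and colored by genotype. Points rise from left to right, with Pearson's r of 0.80 for lymphocytes and 0.77 for macrophages.

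Genes whose log2 CPM followed Trp53 most closely over all 15 tumors, by Pearson's r, were Slc28a2 (r = 0.945), Adap2 (0.911), Itga4 (0.894), Srgap2 (0.882) and Atp8b4 (0.879). These are the 5 highest of the genes tested, a description of these tumors across 3 genotypes and 2 library sets. All 5 were higher in B1/P tumors 225070 and 246361 than in the other three B1/P tumors, as Trp53 was. Itga4 for example had 23.3 and 19.6 CPM there and 4.92 to 5.82 CPM in the others.

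Trp73, on chromosome 4 from 154056253 to 154140208, had the widest range of the 10 genes as a ratio of highest to lowest CPM. B1/P tumors 225068, 246361, 255232 and 248662 had 30, 92.1, 20.1 and 73.9 CPM, while B1/P tumor 225070 had 0.0592 CPM, from 2 read pairs. B1/P/Rbf tumors had 0.227, 0.297, 1.74, 1.37 and 0.422 CPM, and P/Rbf tumors 0.0575, 1.67, 3.44, 0.553 and 0.204 CPM. Normal glands had 0.469, 0.753 and 0.474 CPM. Thus 4 of 5 B1/P tumors lay above every other sample, and the remaining one had as few read pairs as the lowest P/Rbf tumor. The log2 fold change of B1/P tumors relative to gland was 6.24 ± 1.67 (adjusted p = 0.00853 from edgeR). Relative to B1/P tumors it was −5.73 ± 1.28 in B1/P/Rbf tumors (adjusted p = 0.00664) and −5.18 ± 1.25 in P/Rbf tumors (adjusted p = 0.00947). The latter ranged from −6.11, without P/Rbf tumor 290860, to −4.70, without B1/P tumor 246361, and was called with any sample left out. Neither group with T121 was called against gland (0.52 ± 1.3, adjusted p = 0.782, and 1.07 ± 1.31, adjusted p = 0.549), nor were they called against each other (adjusted p = 0.856). limma-voom with quantile normalization called none of the 3 differences that edgeR called (log2 fold changes of 5.23, −4.39 and −4.07 in the same order, adjusted p = 0.144, 0.157 and 0.170), while without B1/P tumor 225070 edgeR gave adjusted p values of 0.0011, 0.000982 and 0.00145.

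Trp63, which encodes p63 and was read as one of the 62 pathway genes, had a like order among B1/P tumors. It had 74.9, 268, 86.9 and 306 CPM in B1/P tumors 225068, 246361, 255232 and 248662 and 7.91 CPM in 225070. P/Rbf tumors had 3.68 to 66.4 CPM, B1/P/Rbf tumors 0.621 to 28 CPM and glands 15.2 to 22.9 CPM. Trp63 was called lower than in B1/P tumors in B1/P/Rbf tumors (−3.17 ± 0.98, adjusted p = 0.0358 from edgeR) and in P/Rbf tumors (−2.99 ± 0.98, adjusted p = 0.0408). With the set term both calls were lost, at log2 fold changes of −2.82 (edgeR adjusted p = 0.091) and −3.39 (adjusted p = 0.0695). The 7 myoepithelial markers summed to 1449.8, 1979, 847 and 1779.6 CPM in the 4 B1/P tumors with high Trp73, and to 394 CPM in tumor 225070. Among P/Rbf tumors the highest Trp73 values, 3.44 and 1.67 CPM, came with the highest myoepithelial sums, 1396 and 757 CPM in tumors 290860 and 287845. In B1/P/Rbf tumors this was not so, since 208863 had the highest Trp73 (1.74 CPM) with a sum of 218 CPM, and 210906 the highest sum (332 CPM) with 0.422 CPM of Trp73. The mean log2 level of the list was higher in B1/P tumors than in B1/P/Rbf and in P/Rbf tumors (exact two-sided permutation p = 0.0317 each), while 1 of its 7 genes was called lower in each of these comparisons. The part of myoepithelial cells in the Trp73 difference was not tested.

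**Figure D3:**
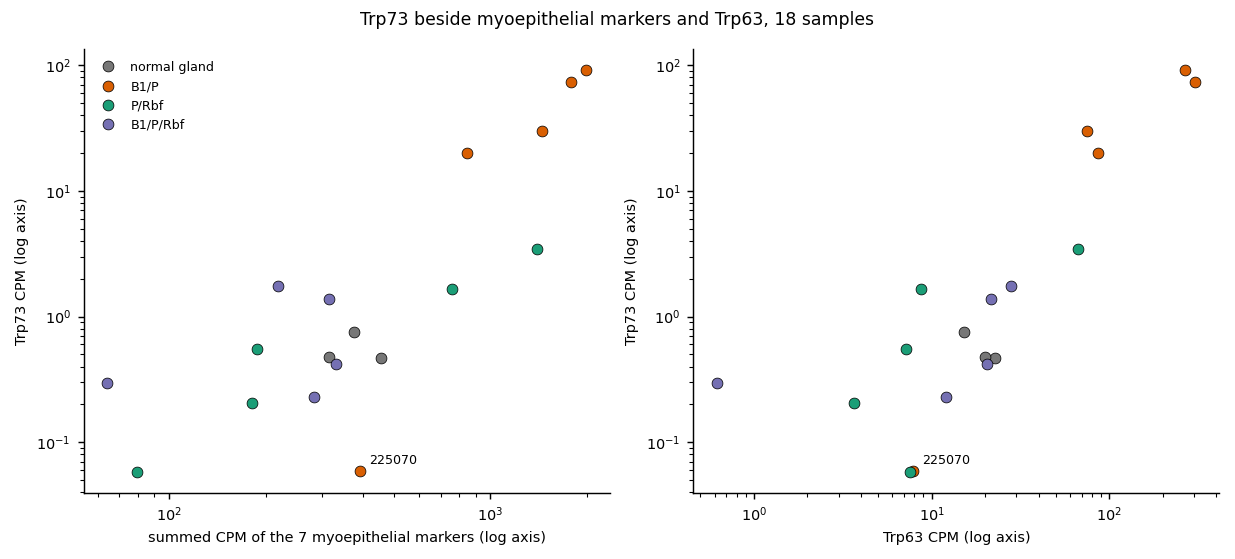
Trp73 CPM against the summed CPM of 7 myoepithelial markers and against Trp63 CPM in 18 samples, all axes logarithmic, with B1/P tumor 225070 named. The 4 B1/P tumors with 20.1 CPM of Trp73 or more lie at the upper right of both plots, and tumor 225070 lies at the bottom.

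The 5 genes most like Trp73 over the 15 tumors were Phyhip (Pearson's r = 0.936), Ltb4r2 (0.932), Snai2 (0.924), Kif17 (0.922) and Lzts1 (0.918). Snai2, a transcription factor of basal mammary cells, had 47.7, 47.4, 28.9 and 98.0 CPM in the 4 B1/P tumors with high Trp73 and 4.41 CPM in tumor 225070. Its mean CPM was 5.05 in B1/P/Rbf tumors, 6.09 in P/Rbf tumors and 4.81 in glands.

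To show where p53 family sites stand, windows from 250 bases before to 50 bases after each RefSeq transcript start (GRCm38.p6) were searched. Windows were found for 9 of the 10 genes, all but Zmat3, 13 windows in all. The p53 consensus site of 20 bases without a gap, with at most 2 mismatches, was found in windows of Cdkn1a, Ccng1 and Trp73. It was found in 0.798% of the 32851 windows of all genes, and in windows of 0.94% of 27025 genes. The E2F motif TTCCCGCC on either strand, the site through which the pocket proteins act with E2F, was found in windows of Trp73 and Bbc3. It was found in 2.19% of all windows and for 2.52% of the genes. A match is a description of the letters and shows no binding. Sites outside these windows, and p53 sites with a gap, could not be found, so a gene without a match may still have one. The p53 sites are shown with 20 bases on each side and the matched bases in capitals, read on the strand of the gene. The site of Cdkn1a ends 31 bases before the start at 29090979, and the window of its other start, at 29093769, held none. That of Ccng1 ends 175 bases before its start, and that of Trp73 46 bases before the internal start at 154097173.
Cdkn1a, chr17:29090908-29090967, plus strand, 1 mismatch: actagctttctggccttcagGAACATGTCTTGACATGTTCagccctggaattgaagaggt
Ccng1, chr11:40755442-40755501, minus strand, 1 mismatch: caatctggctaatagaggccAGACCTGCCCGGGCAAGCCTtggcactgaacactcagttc
Trp73, chr4:154097200-154097259, minus strand, 2 mismatches: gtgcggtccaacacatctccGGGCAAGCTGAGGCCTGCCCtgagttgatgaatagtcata

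The E2F matches among the 10 genes, 2 at the upstream start of Trp73 (154139875) and 1 at Bbc3, are shown with the motif in capitals, so that all matches of both searches can be read. Those of Trp73 lie 230 and 95 bases before the start. That of Bbc3 lies 231 bases before the start at 16310261, and the windows of its other starts held none.
Trp73, chr4:154140086-154140125, minus strand: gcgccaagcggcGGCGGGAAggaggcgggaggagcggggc
Trp73, chr4:154139951-154139998, minus strand: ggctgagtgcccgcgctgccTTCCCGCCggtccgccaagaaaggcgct
Bbc3, chr7:16310011-16310049, plus strand: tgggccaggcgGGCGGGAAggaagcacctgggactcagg

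Of the feedback inhibitors, Ccng1 was far lower in tumors and Mdm2 was not called in any comparison of this fit. Ccng1 encodes cyclin G1, which acts with Mdm2 to restrain p53. Glands had 640.0, 394 and 576 CPM. B1/P/Rbf tumors had 42.9, 36.7, 42.1, 47.2 and 44.3 CPM, B1/P tumors 47.5, 65.0, 36.8, 54.8 and 48.1 CPM, and P/Rbf tumors 100, 62, 63.6, 62.6 and 44.9 CPM. No tumor reached the lowest gland. The log2 fold change relative to gland was −3.65 ± 0.24 in B1/P/Rbf, −3.41 ± 0.24 in B1/P and −3.01 ± 0.24 in P/Rbf tumors (adjusted p = 3.8e-08, 8.9e-08 and 1.3e-07 from edgeR). Mdm2 had 59.5 to 63.3 CPM in glands, 40.7 to 56.4 in B1/P/Rbf, 38.4 to 90.8 in B1/P and 48.9 to 80.9 in P/Rbf tumors. All 5 B1/P/Rbf tumors lay below the 3 glands, with a log2 fold change of −0.34 ± 0.25 (adjusted p = 0.303 from edgeR), a difference that was called with the filter at a log2 CPM of 6 (−0.64, adjusted p = 0.0404).

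Cdkn1a, which encodes the cyclin-dependent kinase inhibitor p21 that halts the cell cycle, was the member that was higher in tumors with T121. B1/P/Rbf tumors had 109, 177, 207, 159.9 and 192 CPM and P/Rbf tumors 86.9, 182, 138, 90.7 and 217 CPM. B1/P tumors had 68.5, 76.6, 69.7, 23.5 and 41.2 CPM, and glands 59.8, 59.8 and 66.7 CPM. Every tumor with T121 was above every B1/P tumor and every gland. The log2 fold change relative to B1/P tumors was 1.60 ± 0.32 in B1/P/Rbf tumors (3.02-fold, adjusted p = 0.00314 from edgeR) and 1.35 ± 0.32 in P/Rbf tumors (2.56-fold, adjusted p = 0.00774). Relative to gland it was 1.44 ± 0.38 in B1/P/Rbf tumors (adjusted p = 0.00670), 1.2 ± 0.37 in P/Rbf tumors (adjusted p = 0.0181) and −0.15 ± 0.36 in B1/P tumors (adjusted p = 0.772). The groups with T121 did not differ past the threshold (0.24 ± 0.31, adjusted p = 0.759).

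Cdkn1a also separated the library sets among B1/P tumors, with 68.5 to 76.6 CPM in the first set and 23.5 and 41.2 CPM in the second. With the set term, both differences from B1/P tumors were still called (1.24 and 2.14), while B1/P/Rbf tumors against gland gave 0.30 (adjusted p = 0.699 from edgeR). The same term moved B1/P tumors against gland to −0.94, which was not called (edgeR adjusted p = 0.0785). P/Rbf tumors against gland lost the call at a like fold change without gland 330154 (1.21, edgeR adjusted p = 0.0636) or without gland 330156 (1.28, adjusted p = 0.0529), and at a smaller one with the filter at a log2 CPM of 6 (0.80, adjusted p = 0.098). The proliferation list was higher in both groups with T121 than in B1/P tumors (exact two-sided permutation p = 0.00794 each, with 6 of 12 genes called in B1/P/Rbf and 8 of 12 in P/Rbf tumors), and its part in the Cdkn1a difference was not tested.

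The genes tied to cell death were lower in tumors or not called. Phlda3 encodes a pleckstrin homology domain protein that restrains Akt. Glands had 119.5, 169 and 156 CPM, B1/P tumors 50.3, 15.7, 73.2, 77.2 and 101 CPM, P/Rbf tumors 8.46, 24.8, 23.0, 11.0 and 13.3 CPM, and B1/P/Rbf tumors 13.4, 5.40, 9.73, 11.4 and 6.98 CPM. The order was gland, then B1/P, then the groups with T121, and of B1/P tumors it was 225070 that overlapped P/Rbf tumors. Relative to gland the log2 fold change was −3.98 ± 0.48 in B1/P/Rbf and −3.20 ± 0.47 in P/Rbf tumors (adjusted p = 7.6e-06 and 5.2e-05 from edgeR). Relative to B1/P tumors it was −2.75 ± 0.43 and −1.98 ± 0.42 (adjusted p = 0.000799 and 0.00451). B1/P tumors against gland gave −1.22 ± 0.45 with an edgeR adjusted p of 0.0460. That call was lost under 4 of the alternative fits (highest adjusted p = 0.349, at −0.73 with the set term). It was also lost without any of 11 single samples (highest adjusted p = 0.147, without gland 330155). Among B1/P tumors Phlda3 was lower in the first library set (15.7 to 73.2 CPM) than in the second (77.2 and 101 CPM). With the set term the difference between T121 carriers (B1/P/Rbf over P/Rbf) turned from −0.78 (adjusted p = 0.362) to 0.16 (adjusted p = 0.943), and the call of B1/P/Rbf tumors against gland moved to −3.04 (adjusted p = 0.00887).

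Eda2r, a receptor of the tumor necrosis factor receptor family for ectodysplasin A2, had 18.1, 9.85 and 18.7 CPM in glands and no more than 2.74 CPM in any tumor. Tumor libraries held 8 to 87 read pairs of it. The log2 fold change relative to gland was −4.11 ± 0.57 in B1/P/Rbf, −3.42 ± 0.55 in B1/P and −4.10 ± 0.57 in P/Rbf tumors (adjusted p = 3.2e-05, 0.000183 and 3.3e-05 from edgeR). Among glands, 330155 had the lowest Eda2r and the lowest Ccng1. It was also lowest in the summed muscle (22832 CPM), adipocyte (20019.6 CPM), fibroblast (1723 CPM), macrophage (222 CPM) and proliferation markers (248 CPM), highest in lymphocyte (874 CPM) and luminal markers (2697 CPM), and in the middle for endothelial (522 CPM) and myoepithelial markers (377 CPM). Bbc3, which encodes the BH3-only death protein PUMA, had 7.27 to 7.99 CPM in glands, 3.74 to 11.4 in B1/P/Rbf, 3.44 to 8.81 in B1/P and 3.62 to 5.76 in P/Rbf tumors, and was not called in any comparison.

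Zmat3 and Sesn2 are targets with roles outside arrest and death. Zmat3, a zinc finger protein that binds RNA, was level across groups, at 26.8 to 41.8 CPM in glands and 22.9 to 44.3 CPM over the 15 tumors, with no call. Sesn2 encodes sestrin 2, which restrains mTORC1 signaling. It had 22.7, 24.8 and 23.8 CPM in glands and 28.2, 14.6, 15.0, 19.6 and 29.0 CPM in B1/P tumors. In B1/P/Rbf tumors it had 10.3, 4.99, 9.49, 11.1 and 13.9 CPM and P/Rbf tumors 18.3, 12.2, 10.1, 9.24 and 13.6 CPM. Every tumor with T121 lay below every gland, and every B1/P/Rbf tumor below every B1/P tumor. The log2 fold change relative to gland was −1.26 ± 0.32 in B1/P/Rbf (adjusted p = 0.00602 from edgeR), −0.91 ± 0.32 in P/Rbf (adjusted p = 0.0364) and −0.16 ± 0.33 in B1/P tumors (adjusted p = 0.737). Relative to B1/P tumors it was −1.09 ± 0.29 in B1/P/Rbf tumors (adjusted p = 0.0165) and −0.74 ± 0.29 in P/Rbf tumors (adjusted p = 0.0771), which DESeq2 called (−0.75, adjusted p = 0.0378). The call of P/Rbf tumors against gland was lost without any of 7 single samples (highest adjusted p = 0.135, without gland 330155) and under 3 alternative fits. With the set term the calls of B1/P/Rbf tumors against gland and against B1/P tumors were lost (−0.92, adjusted p = 0.236, and −0.95, adjusted p = 0.0644). The second was also lost with only these groups fitted (−1.06, adjusted p = 0.0594).

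**Figure D4:**
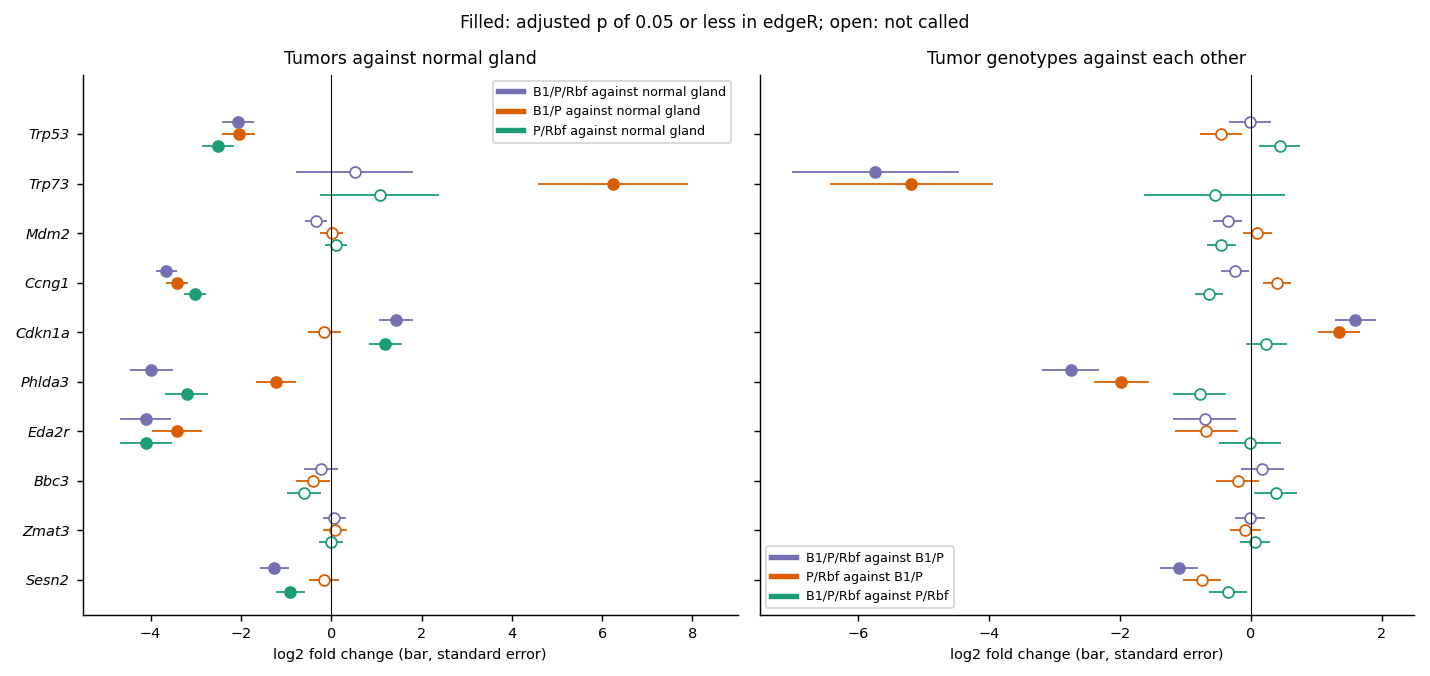
Log2 fold changes of the 10 genes with their standard errors, for tumors against normal gland on the left and between tumor genotypes on the right; filled points were called by edgeR and open points were not. Relative to B1/P tumors Cdkn1a lies to the right and Trp73 and Phlda3 to the left in both groups with T121, and no point comparing the groups with T121 with each other is filled.

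The calls over the 10 genes were set beside those over all genes. Against gland, B1/P/Rbf tumors had 1 member called higher and 5 lower, where 17.1% of all genes tested were called higher and 20.0% lower. B1/P tumors had 1 higher and 4 lower (16.8% and 16.9% of all genes), and P/Rbf tumors 1 higher and 5 lower (17.4% and 20.3%). With B1/P tumors as the base, B1/P/Rbf had 1 member called higher and 3 lower (7.36% and 9.29% of all genes), and 1 higher and 2 lower in P/Rbf tumors (8.43% and 10.8%). The 3 comparisons with gland share the glands, and the 2 with B1/P tumors share those tumors. When the groups with T121 were compared with each other, 0 members were called by edgeR, DESeq2 or limma-voom, where edgeR called 0.219% of all genes higher and 0.0625% lower. Ccng1 alone had an unadjusted p under 0.05 there in edgeR and limma-voom, and Ccng1 and Mdm2 in DESeq2.

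Per kilobase of exon, the order of levels also differed between groups. In glands Ccng1 led at 153 ± 36.3 CPM per kilobase, ahead of Phlda3 at 95 ± 16.4 and Cdkn1a at 17.5 ± 1.13 (SD, n = 3), and the samples of these neighbours did not overlap. In B1/P tumors Phlda3 led at 40.7 ± 20.6 CPM per kilobase, followed by Cdkn1a at 15.7 ± 6.36 and Ccng1 at 14.4 ± 2.95 (n = 5), with overlap between neighbours. Cdkn1a led in B1/P/Rbf tumors, at 47.5 ± 10.7 CPM per kilobase, above Ccng1 at 12.1 ± 1.09 without overlap, and in P/Rbf tumors, at 40.2 ± 16.0 above Ccng1 at 19.0 ± 5.75 with overlap (n = 5 each). Trp73 was last in B1/P/Rbf tumors and glands, next to last in P/Rbf tumors, and ranked 5 of 10 in B1/P tumors at 7.81 ± 6.94 CPM per kilobase. Pairs of members did not move together past the threshold over the 10 tumors with T121: 0 of 45 Pearson correlations passed after adjustment and 5 had an unadjusted permutation p under 0.05. The strongest, Trp53 with Mdm2, had r = −0.83 (permutation p = 0.00354, adjusted 0.159) and rho = −0.84 (permutation p = 0.00370, adjusted 0.166).

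The 62 other pathway genes moved in both directions, and their counts are given beside the share of all genes called. Against gland, 17 rose and 14 fell in B1/P/Rbf tumors (17.1% and 20.0% of all genes; median log2 fold change 0.23, against 0.05 over all genes), 14 rose and 8 fell in B1/P tumors (16.8% and 16.9%, 0.19 against 0.12), and 15 rose and 11 fell in P/Rbf tumors (17.4% and 20.3%, 0.07 against 0.05). Relative to B1/P tumors, 8 rose and 9 fell in B1/P/Rbf tumors (7.36% and 9.29%, median 0.01 against −0.06). In P/Rbf tumors 6 rose and 5 fell (8.43% and 10.8%, 0.18 against −0.05). With both directions together, 22 of 62 were called in B1/P and 26 of 62 in P/Rbf tumors against gland (33.8% and 37.7% of all genes). For P/Rbf over B1/P tumors it was 11 of 62 (19.2%). These counts were near the share over all genes. Between the groups with T121 edgeR called 0, with 13 at an unadjusted p under 0.05, limma-voom called 0, and DESeq2 called 3, namely Cgref1, Rprm and Zfp365, where it called 5.53% of all genes. With the library-set term the pathway calls fell from 31 to 16 in B1/P/Rbf tumors against gland, from 17 to 11 against B1/P, and from 11 to 5 in P/Rbf against B1/P. The share of all genes called went from 37.0% to 20.2%, from 16.7% to 12.4% and from 19.2% to 10.5%.

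Cdkn2a, which encodes p16 and the Mdm2 inhibitor p19ARF, had the largest rise against gland in each tumor group. Glands had 0.430 to 0.491 CPM, from 11 to 15 read pairs, and every tumor had 48.8 CPM or more. Its log2 fold change was 8.24 ± 0.53 in B1/P/Rbf, 7.75 ± 0.52 in B1/P and 8.91 ± 0.55 in P/Rbf tumors (adjusted p = 3.8e-08, 8.8e-08 and 2.7e-08 from edgeR), and 1.16 ± 0.30 in P/Rbf tumors relative to B1/P (adjusted p = 0.0139). Epha2, an ephrin receptor, rose against gland in all 3 groups (2.58 ± 0.61, 2.81 ± 0.61 and 3.92 ± 0.65 in the same order, largest adjusted p = 0.00320). Rprm, a mediator of G2 arrest, rose in B1/P/Rbf tumors (4.83 ± 1.32, adjusted p = 0.00867, on 2 to 4 read pairs per gland) and Perp, a protein of desmosomes and apoptosis, in B1/P tumors (3.24 ± 0.91, adjusted p = 0.0115), with neither called in the other groups. Gls2, a mitochondrial glutaminase, rose in all 3 groups (2.54 ± 0.91, 2.73 ± 0.92 and 3.50 ± 0.96, adjusted p = 0.0376, 0.0306 and 0.00879). With the set term Rprm in B1/P/Rbf (5.32, adjusted p = 0.0541) and Gls2 in B1/P/Rbf and B1/P tumors (1.49 and 2.01, adjusted p = 0.449 and 0.155) were not called.

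Ak1, an adenylate kinase abundant in skeletal muscle, had the largest fall against gland in each tumor group (−5.17 ± 0.67 in B1/P/Rbf, −4.37 ± 0.65 in B1/P and −4.50 ± 0.66 in P/Rbf tumors, edgeR adjusted p at most 9.0e-05). Zfp385a, a zinc finger partner of p53, fell in B1/P/Rbf (−3.09 ± 0.43) and in P/Rbf tumors (−2.85 ± 0.43, adjusted p = 3.6e-05 and 7.2e-05). Ephx1, the microsomal epoxide hydrolase, was among the 3 largest falls in B1/P/Rbf tumors (−2.94 ± 0.65), the death receptor Fas in P/Rbf tumors (−2.94 ± 0.68), and the phosphatase Ptp4a3 (−2.83 ± 0.26) and Dglucy (−3.0 ± 0.43) in B1/P tumors. The muscle and adipocyte markers given above fell in the same comparisons, and their part in these falls was not tested.

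With B1/P as the base, calls by list went both ways. In B1/P/Rbf tumors, 3 of 11 cell death targets were called higher and 1 lower, 2 of 6 DNA repair targets higher and 1 lower, 1 of 8 arrest targets higher and 1 lower, 1 of 10 metabolic targets higher and 1 lower, 0 of 13 regulators higher and 2 lower, and 1 of 14 other targets higher and 3 lower (7.36% and 9.29% of all genes). For P/Rbf tumors these counts were, in the same order, 3 and 0, 2 and 0, 0 and 1, 0 and 1, 1 and 1, and 0 and 2 (8.43% and 10.8%). Trp53inp1, which promotes p53-dependent death, rose in B1/P/Rbf (2.78 ± 0.65, adjusted p = 0.00798 from edgeR) and in P/Rbf tumors (2.03 ± 0.63, adjusted p = 0.0316). B1/P tumors had 35.5 to 114 CPM of it, B1/P/Rbf tumors 141 to 1188 CPM, and P/Rbf tumors 48.5 to 552 CPM, the last with overlap. Pidd1, a death domain protein, rose in B1/P/Rbf tumors (1.57 ± 0.26, adjusted p = 0.00118, all 5 above every B1/P tumor), as did Rprm (4.22 ± 1.01, adjusted p = 0.00961, from 2 to 10 read pairs per B1/P tumor). Pidd1 also rose in P/Rbf tumors (0.99, adjusted p = 0.0139), though less than Cdkn2a (above) and the repair gene Ddb2 (1.13, adjusted p = 0.0190). With the set term Pidd1 lost this call at a like fold change (0.98, edgeR adjusted p = 0.0943), while Ddb2 was still called (1.84, adjusted p = 0.00767). Pmaip1, which encodes the BH3-only protein NOXA, rose in P/Rbf tumors (1.87 ± 0.61, adjusted p = 0.0393, with overlap). Besides Trp63, the largest falls were those of Ephx1 (−3.0 ± 0.61 in B1/P/Rbf and −2.59 ± 0.60 in P/Rbf tumors, adjusted p = 0.00353 and 0.00736) and Zfp365 (−2.55 ± 0.74 and −4.89 ± 0.83, adjusted p = 0.0265 and 0.00133). With the set term, 5 of the 6 genes named by rule for B1/P/Rbf over B1/P were still called, all but Trp63 (−2.82, edgeR adjusted p = 0.0910). For P/Rbf over B1/P it was 1 of 6, Zfp365 (−4.36, adjusted p = 0.00675), while Trp53inp1, Pmaip1, Cdkn2a, Trp63 and Ephx1 were not (adjusted p = 0.0695 to 0.256). In the order named, log2 fold changes of these uncalled genes with the term were 1.61, 1.74, 1.17, −3.39 and −1.62. B1/P tumor 225070, lowest of its group in Trp73 and Trp63, was also lowest in Ephx1 (12.0 CPM against 14.6 to 101 CPM) and Zfp365 (1.3 CPM against 2.54 to 33.2 CPM).

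**Figure D5:**
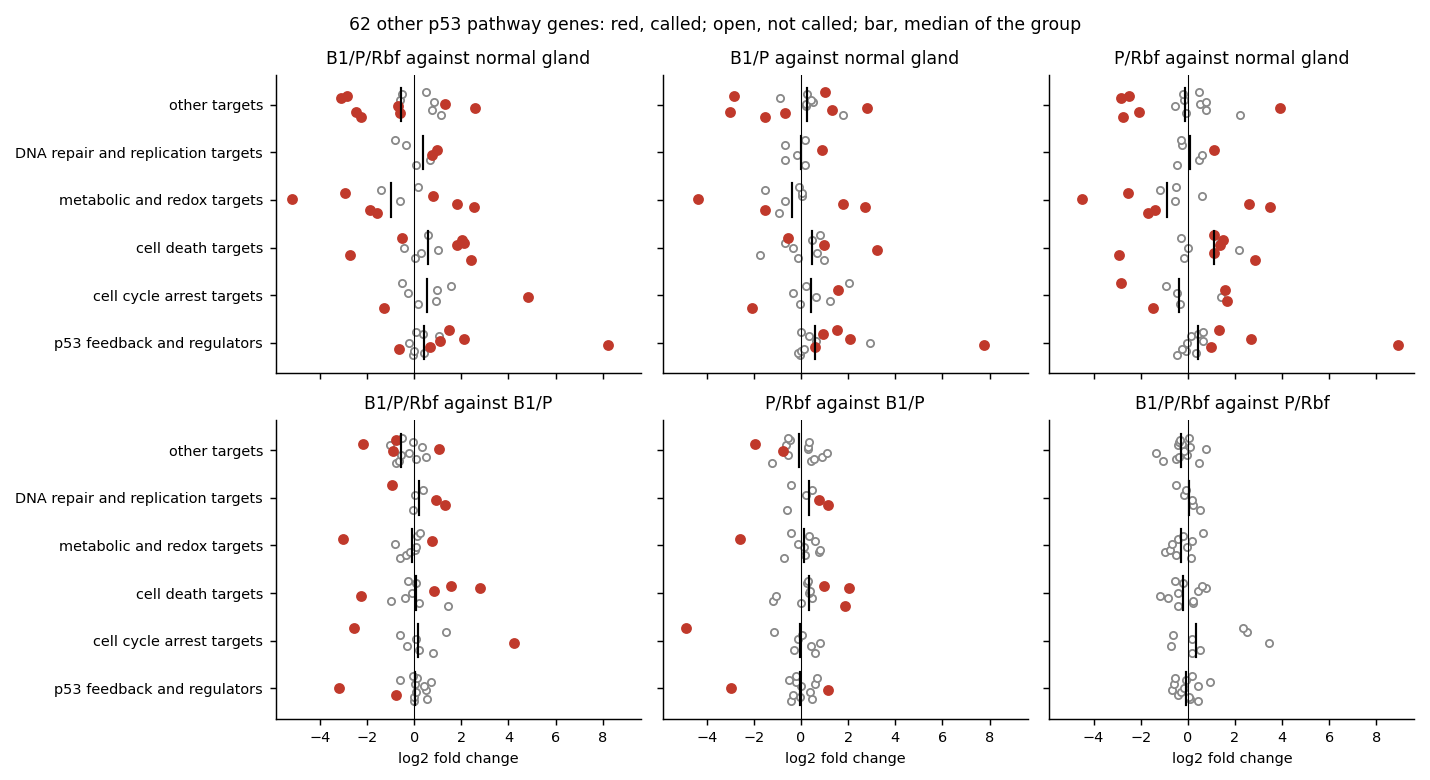
Log2 fold changes of the 62 other p53 pathway genes in 6 comparisons, by functional group, with red points called by edgeR, open points not called and a bar at the median of the group. Called genes lie on both sides of 0 in the first 5 comparisons, and the comparison of the groups with T121 has none.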

How the data were processed

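The authors made stranded libraries, trimmed reads with cutadapt 1.18 and counted them per gene with RSEM 1.3.0, per the submitters' processing notes. The deposited values are RSEM expected counts, not normalized, with 5.61% not whole. RSEM shares out ambiguous pairs among genes. A human reference is named in the methods, while the submitters' notes list GRCh38, hg38 and the mouse build mm10. All 55450 identifiers belong to GENCODE release M21 (GRCm38), whose positions are given. Whether counting used the strand is not stated. No other column held sample values.

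Counts were rounded and fitted in R 4.3.3 with edgeR 4.0.16 (filterByExpr with a minimum count of 10, TMM, one quasi-likelihood fit of 18 samples by group). Exact permutation tests compared the mean log2 CPM of each marker list between 2 groups, without adjustment over the lists. Each correlation was tested with 100000 permutations. Both used log2 CPM with a prior count of 2 (Python 3.11.15, scipy 1.17.1). Fits were tested on simulated data. Each sample has its own mouse number and was counted as 1 replicate. Tests rest on the spread between samples, which holds mouse, dissection and library preparation together, and for low genes such as Trp73 counting adds to it.

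Alternatives were DESeq2 1.42.0, limma-voom (limma 3.58.1) with quantile normalization, no TMM, no filter, a filter keeping genes that reach 6 on the log2 CPM scale in 6 or more samples, only the groups compared, a term for 2 library sets, each sample left out, and for correlations Spearman's rho and a prior count of 0.5. The library sets are implied by the study's supplement. Named were the 10 members, per comparison the 3 most raised and the 3 most lowered called pathway genes at a mean of 1 CPM or more, and the 5 genes most like Trp53 and Trp73. Genes named beyond this were chosen after their values were seen. The members and lists were chosen with earlier results of these data known.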

Additional observations from a re-analysis of the deposited data

Results flagged for a closer look

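Among 30 groups of 5 tumors (10 genes in 3 genotypes), 2 held a sample whose gap to its nearest neighbour exceeded Dixon's critical value of 0.71 of the range of log2 CPM, and chance gives about 1 in 20. B1/P tumor 225070 had 0.0592 CPM of Trp73, with a gap of 0.772 of the range, and B1/P/Rbf tumor 208863 had 0.221 CPM of Eda2r, with a gap of 0.755 of the range. The second rests on 8 read pairs.

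The effect relative to normal gland differed between tumor genotypes for 4 genes, by the test of the difference itself in edgeR. Against B1/P tumors, the log2 difference of B1/P/Rbf tumors was −5.73 for Trp73 (adjusted p = 0.00664), 1.60 for Cdkn1a (0.00314), −2.75 for Phlda3 (0.000799) and −1.09 for Sesn2 (0.0165). That of P/Rbf tumors was −5.18 for Trp73 (adjusted p = 0.00947), 1.35 for Cdkn1a (0.00774) and −1.98 for Phlda3 (0.00451). Each is the same contrast as the tumor comparison in the report, since the glands cancel.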

How the results depend on the processing

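Of 60 member differences, 24 were called, and no alternative turned the sign of a called one. An alternative fit ended 9 of these calls, and leaving out a sample ended 3, in Cdkn1a and Sesn2 of P/Rbf and Phlda3 of B1/P tumors against gland. With a log2 CPM of at least 6, only Ccng1, Cdkn1a, Mdm2 and Phlda3 were tested, and 2 members were called in B1/P and in P/Rbf tumors against gland and 2 in B1/P/Rbf against B1/P tumors. There Mdm2 of B1/P/Rbf tumors against gland was called (−0.64). Of the pathway genes, 19 were then tested, with 6 called for B1/P/Rbf tumors, 7 for B1/P and 9 for P/Rbf against gland (38.7%, 35.2% and 36.7% of 4551 genes), and 2 in each group with T121 against B1/P tumors (19.5% and 19.0%). The library-set term gave 16 pathway calls, from 31, for B1/P/Rbf tumors against gland (20.2% of all genes), and 11, from 17, and 5, from 11, for B1/P/Rbf and P/Rbf against B1/P tumors (12.4% and 10.5%). Fits of only the groups compared gave 9 and 4 there (12.3% and 9.3%), and limma-voom 11 for the first (16.0%). DESeq2 gave 3 (5.53%) and no TMM 1 (0.391%) for the groups with T121 against each other. Without TMM the median of all genes against gland moved by 0.37 for B1/P/Rbf tumors, by 0.35 for B1/P and by 0.27 for P/Rbf on the log2 scale.

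Of the uncalled differences, 16 changed sign under an alternative fit and 13 with a sample left out. Among these, the ones whose values are given were Trp53 in B1/P/Rbf against B1/P tumors (0.12 in limma-voom, 0.01 without TMM, 0.01 without a filter, 0.03 with only these groups, −0.20 to 0.24 with a sample left out) and Mdm2 in B1/P/Rbf tumors against gland (0.03 without TMM). Others were Cdkn1a in B1/P tumors against gland (0.20 without TMM, −0.29 to 0.04 with a sample left out) and Sesn2 there (0.19 without TMM, 0.03 with the set term). The set term also turned Trp53 in P/Rbf against B1/P tumors (0.50), and Trp53 (−0.91), Cdkn1a (−0.90) and Phlda3 (0.16) in B1/P/Rbf against P/Rbf tumors. The cause of these changes was not tested. The 2 relations of Trp53 with marker lists numbered 0 by Spearman's rho, 0 with a prior count of 0.5 and 0 to 1 with a tumor left out. No paired analysis was possible because the groups share no mouse numbers.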
